A study of Mus musculus with 14 samples.

Results

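The 5 microRNAs described here are the 5p products of the mouse miR-15, miR-16, miR-195 and miR-497 hairpins, namely miR-16-5p, miR-15a-5p, miR-15b-5p, miR-195a-5p and miR-497a-5p. They were picked by name in the mature miRNA counts of the mouse epididymis and are 5 of the 968 miRNA names that occur in the deposited counts of whole tissue (900 names) and of epithelial cells (677 names). The epithelial counts write miR-195a-5p as miR-195-5p and miR-497a-5p as miR-497-5p, and the longer names are used throughout. All samples came from male Swiss mice of 8 weeks with no genetic change and no treatment, whose blood vessels were rinsed with PBS after death, and each was 1 of the 3 regions that spermatozoa pass in turn, the caput, the corpus and the cauda. Whole tissue, with its spermatozoa, vessels and muscle, gave 8 libraries (3 caput, 2 corpus, 3 cauda). Cells called epithelial, which were cleared of spermatozoa, digested with trypsin and collagenase, and taken as those that stayed in suspension in a culture plate, a step meant to leave attached muscle cells and fibroblasts behind, gave 6 libraries (2 per region). Each library holds RNA pooled from several mice, the labels do not say whether replicates come from separate pools, and the study's methods describe fewer replicates per region than some tissue groups have libraries, so the p-values below measure only the spread between libraries, which may be technical.

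A miRNA guides Argonaute proteins to messenger RNAs, which it holds down, and the bases near its 5′ end, called the seed, do most of the pairing. miRNAs with the same seed are therefore grouped into families with largely shared targets. The miR-15 and miR-16 family is known for restraining the cell cycle and for targeting BCL2, the inhibitor of apoptosis, and the miR-15a and miR-16-1 locus is often deleted in chronic lymphocytic leukemia. miR-16-5p is abundant in most tissues and in blood cells, and miR-195a-5p and miR-497a-5p are best known from muscle and heart.

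The mature sequences are shown because they define the family and because the letters outside the seed decide how well sequencing can tell the members apart. They are written 5′ to 3′ from RefSeq (GRCm38.p6), with bases 2 to 8, the seed, in capitals.
miR-16-5p: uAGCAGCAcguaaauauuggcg
miR-15a-5p: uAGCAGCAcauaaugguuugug
miR-15b-5p: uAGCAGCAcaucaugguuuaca
miR-195a-5p: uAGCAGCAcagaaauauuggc
miR-497a-5p: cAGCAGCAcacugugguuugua
miR-322-5p: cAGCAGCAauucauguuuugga

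The same 7 bases stood at positions 2 to 8 in 10 of the 1679 mature miRNAs of the RefSeq set (0.596%). Besides the 5 members these were miR-322-5p, which both preparations contained, miR-195b, which was listed only in whole tissue, and miR-6342, miR-6353 and miR-6419, which neither listed. Outside the seed the members fell apart to different degrees. miR-16-5p and miR-195a-5p differed at 2 of the 21 positions they share and miR-15a-5p and miR-15b-5p at 4 of 22, while miR-195a-5p and miR-497a-5p, which lie side by side in the genome, differed at 9 of 21. None of the members' values was a fraction (0 of their counts), so no read of theirs had visibly been divided between miRNAs, but reads with an error at one of the 2 differing positions may still be counted for the wrong one of miR-16-5p and miR-195a-5p.

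The 5 products come from 6 hairpins at 3 places (GRCm38). Mir15a (chr14:61632027-61632110) and Mir16-1 (chr14:61631880-61631972) lie 54 bases apart on the minus strand within the noncoding gene Dleu2, the former in an intron and the latter overlapping an exon of at least 1 of its transcripts. Mir15b (chr3:69009772-69009835) and Mir16-2 (chr3:69009902-69009996) lie 66 bases apart on the plus strand in an intron of Smc4, which encodes a condensin subunit. Mir497 (chr11:70234717-70234800) and Mir195a (chr11:70235042-70235135) lie 241 bases apart on the plus strand, where the annotation has no other kind of gene. Both Mir16 hairpins give the same miR-16-5p, so its counts cannot be assigned to either place.

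Library totals ran from 1243398 to 2135501 counts for whole tissue and from 89039 to 362867 for epithelial cells, so that the median whole tissue library was 7.11 times as deep. Values are given as CPM, the count of a miRNA per 1000000 counts of its library, after TMM scaling, a factor per library that centres the bulk of the miRNAs, and this was done separately for each preparation. The miRNAs taken as markers of smooth muscle (miR-143 and miR-145a products) summed to between 53228 and 249092 CPM in whole tissue and to between 144525 and 336798 CPM in the cells called epithelial. The 6 epithelial markers (the miR-200 family and miR-205-5p) summed to between 8185 and 23681 CPM in whole tissue and to between 26042 and 41128 CPM in epithelial cells, and no marker of any list was at 0 in all libraries of a preparation. The study checked the purity of these cells by staining and by immunoblotting, and reported them as highly enriched and free of detected spermatozoa. Those checks are not analysed here, and "epithelial cells" is used as the name of the preparation. In such bulk samples fewer cells of a type cannot be told apart from less RNA per cell.

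Every library contained the 5 members, and miR-16-5p was far ahead of the others. It ranked between 11 and 17 among all miRNAs in whole tissue and between 14 and 23 in epithelial cells, whereas miR-15a-5p ranked between 121 and 146 and between 120 and 151. The share of a library's counts that belonged to the 5 together was 1.05 to 1.98% in whole tissue and 0.845 to 1.70% in epithelial cells. Of the family's counts, miR-16-5p made up between 85.8 and 92.2% in whole tissue and between 74.4 and 90.2% in epithelial cells. miR-195a-5p came second in all 14 libraries and miR-15a-5p last. The middle places changed with the region. In the 9 caput and corpus libraries of both preparations miR-497a-5p exceeded miR-15b-5p, and in all 5 cauda libraries miR-15b-5p exceeded miR-497a-5p. An order within a library does not depend on scaling, but ligation and amplification favour some small RNAs over others, so levels of different miRNAs are comparable only roughly.

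**Figure D1:**
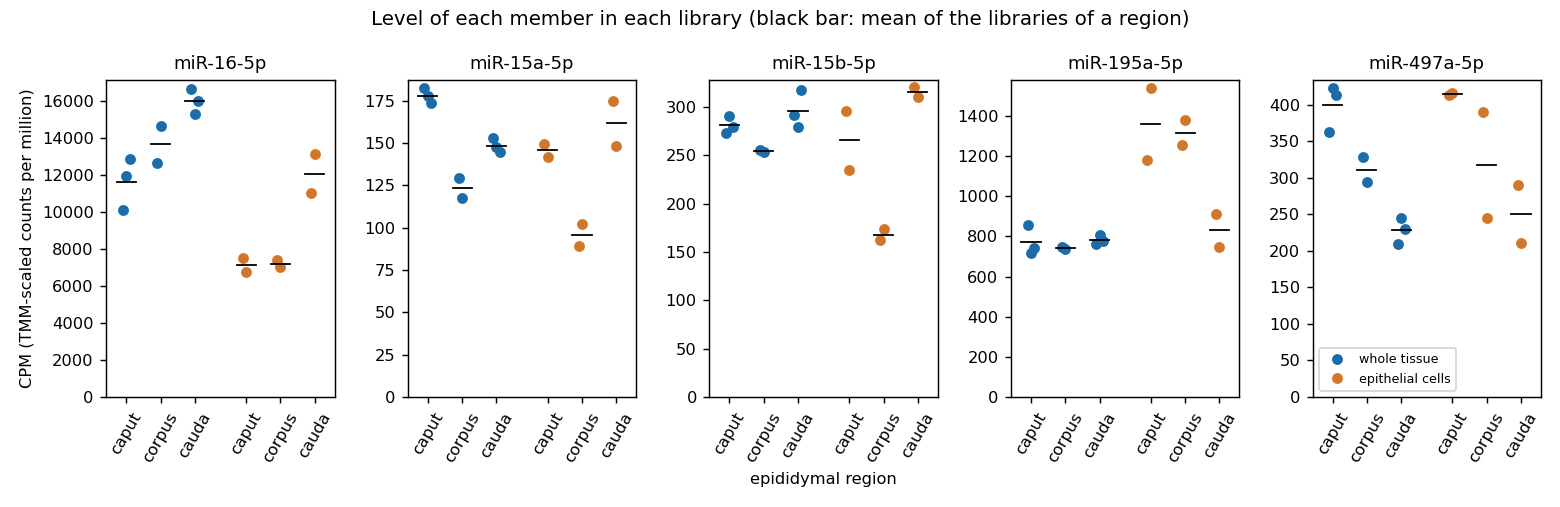
Level of each member in every library, in CPM after TMM scaling on a linear axis from 0, by region and preparation, with 1 point per library and a bar at the mean. miR-16-5p was highest in the cauda in both preparations, and miR-497a-5p in whole tissue was lower in the 3 cauda libraries (209 to 245 CPM) than in the 3 caput libraries (363 to 424 CPM).

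In whole tissue, miR-16-5p rose from caput to cauda and miR-497a-5p fell. miR-16-5p stood at 10103, 11975 and 12893 CPM in the 3 caput libraries, at 12685 and 14651 CPM in the 2 corpus libraries and at 16671, 15321 and 16037 CPM in the 3 cauda libraries. All cauda libraries lay above all others, while caput and corpus overlapped. The mean went from 11657 ± 1422 CPM (SD, n = 3) in the caput to 16010 ± 676 CPM (SD, n = 3) in the cauda, a log2 change of 0.46 (SE 0.10, limma adjusted p = 0.00176). Under each of 8 other settings and without each of the 8 libraries in turn, this rise kept an adjusted p of at most 0.0054, and scaled by library totals it was larger (0.81). The steps from caput to corpus (log2 change 0.23, adjusted p = 0.102) and from corpus to cauda (0.23, adjusted p = 0.105) did not pass the limma test. The former passed by library totals (0.57, adjusted p = 0.0010), with all miRNAs of at least 1 count (0.27, adjusted p = 0.047) and without caput replicate 3 (0.37, adjusted p = 0.025).

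miR-497a-5p had the opposite course. Its levels were 363, 424 and 413 CPM in the caput, 328 and 294 CPM in the corpus and 209, 245 and 229 CPM in the cauda, with no overlap between any of the regions. From caput to cauda it fell by 0.81 on the log2 scale (SE 0.11, limma adjusted p = 6.8e-05), and this also held under each of the 8 settings and without each library (adjusted p at most 0.0021), though by library totals the fall was smaller (log2 change -0.46). Its 2 smaller steps, caput to corpus (log2 change -0.36, adjusted p = 0.026) and corpus to cauda (-0.45, adjusted p = 0.013), passed too. The first passed under 3 of 8 other settings. It was lost with DESeq2 (adjusted p = 0.124), DESeq2 size factors (0.061), all miRNAs of at least 1 count (0.117), the replicate block (0.059) and library totals (log2 change -0.03), and without caput replicate 2 (-0.26), caput replicate 3 (-0.28) or corpus replicate 2 (-0.23). The second was lost without corpus replicate 1 (-0.35, adjusted p = 0.125) or with DESeq2 (adjusted p = 0.054).

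miR-15a-5p was lowest in the corpus. It measured 183, 178 and 173 CPM in the caput, 129 and 117 CPM in the corpus and 153, 148 and 144 CPM in the cauda, and the regions did not overlap. Its fall from caput to corpus was 0.53 on the log2 scale (log2 change -0.53, SE 0.12, limma adjusted p = 0.0035), which was lost without corpus replicate 2 (-0.40, adjusted p = 0.064) and by library totals (-0.20, adjusted p = 0.184). The difference from caput to cauda was smaller (log2 change -0.26, adjusted p = 0.034). With the replicate numbers as a block its adjusted p was 0.077, and the call was also lost without any single library (log2 change between -0.28 and -0.19). By library totals the sign turned (log2 change 0.087, adjusted p = 0.45).

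For the remaining members no comparison of whole tissue regions passed. miR-15b-5p measured 273, 291 and 279 CPM in the caput, 256 and 254 CPM in the corpus and 292, 279 and 318 CPM in the cauda, so that the corpus lay lowest and caput and cauda overlapped. Its log2 change from caput to cauda was 0.07 (95% interval -0.14 to 0.28, adjusted p = 0.49). miR-195a-5p measured 857, 715 and 741 CPM, then 746 and 737 CPM, then 761, 807 and 777 CPM, with caput and cauda overlapping. Its log2 change from caput to cauda was 0.02 (95% interval -0.18 to 0.23, adjusted p = 0.81).

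No member reached the study's threshold, an adjusted p under 0.05 with a change of at least 2-fold, between any regions of whole tissue (0 of 5), where 29.9% of the tested miRNAs did from caput to corpus, 27.3% between corpus and cauda and 53.2% from caput to cauda. By the adjusted p alone, 2 of 5 members passed from caput to corpus (all tested miRNAs 59.3%), 1 of 5 from corpus to cauda (54.3%) and 3 of 5 from caput to cauda (79.2%). The median size of the log2 change from caput to cauda was 0.26 over the members and 1.11 over all 355 miRNAs tested in whole tissue. In epithelial cells it was 0.70 over the members and 0.67 over all, and from corpus to cauda 0.72 and 0.51. These directions are relative to the bulk of the miRNAs. Scaled by library totals instead, the median log2 change of all miRNAs from caput to cauda was 0.30, against -0.05 with TMM, and 3 members passed as higher (miR-16-5p, miR-15b-5p and miR-195a-5p) and 1 as lower (miR-497a-5p), against 1 higher and 2 lower with TMM.

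**Figure D2:**
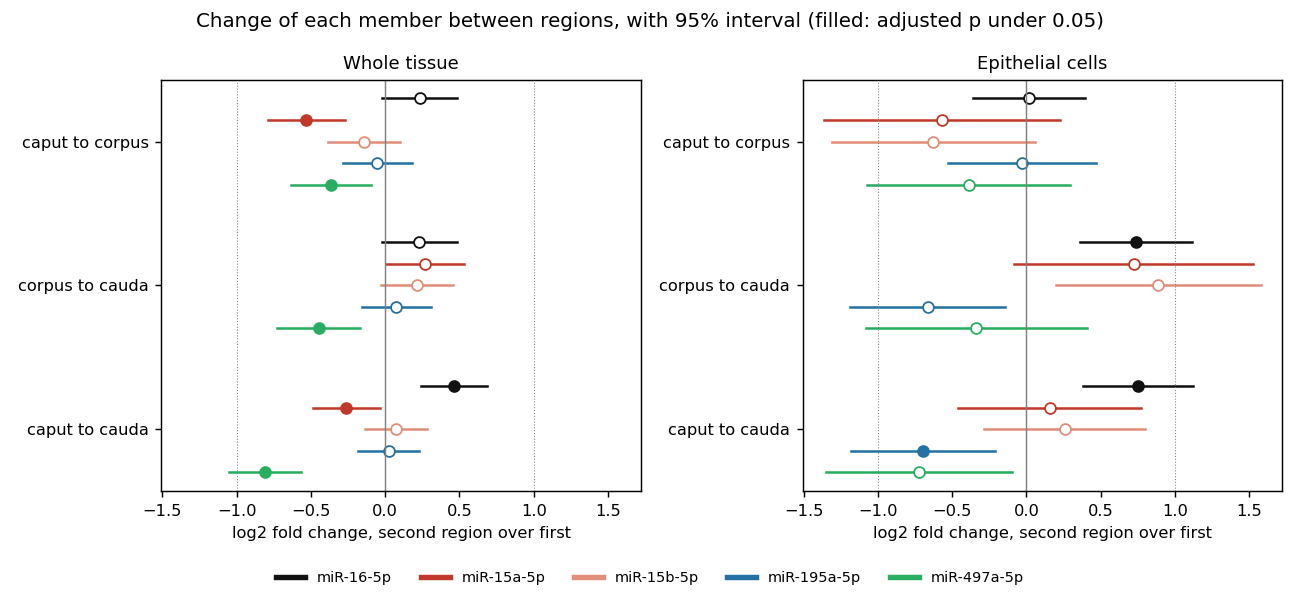
Log2 fold change of each member between regions (second region over first), whole tissue on the left and epithelial cells on the right, with the 95% interval of the limma fit. Filled points have an adjusted p under 0.05, dotted lines mark a 2-fold change, and no filled point lies beyond them.

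Marker miRNAs of other cells moved along the same axis in whole tissue. From caput to cauda, 4 of 4 erythroid markers rose, with a summed level between 87.3 and 97.8 CPM in the caput, 238 and 276 CPM in the corpus and 846 and 1324 CPM in the cauda, and 5 of 5 leukocyte markers rose, from between 966 and 1160 CPM in the caput to between 1948 and 1993 CPM in the cauda. Smooth muscle (4 of 4), germ cell (7 of 7) and fibroblast markers (3 of 3) and 1 of 2 endothelial markers rose as well, and 6 of 6 epithelial markers fell. Most miRNAs passed in this comparison, 134 of all 355 tested as higher and 147 as lower. The part of these cells in the members' changes was not tested.

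In epithelial cells miR-16-5p was again highest in the cauda. It stood at 7499 and 6785 CPM in the caput, 7408 and 7006 CPM in the corpus and 11014 and 13130 CPM in the cauda, so that both cauda libraries lay above the other 4. The log2 change was 0.75 from caput to cauda (SE 0.16, limma adjusted p = 0.0087) and 0.74 from corpus to cauda (SE 0.16, adjusted p = 0.027), while from caput to corpus it was 0.02 (95% interval -0.36 to 0.39). Without caput replicate 2 the change from caput to cauda was 0.72 (adjusted p = 0.068), and under the 8 other settings and without any of the other 5 libraries its adjusted p was at most 0.033. The change from corpus to cauda was lost without caput replicate 2, corpus replicate 1, corpus replicate 2 or cauda replicate 2, with a log2 change between 0.58 and 0.78 there. It was also lost by library totals (adjusted p = 0.051), with only miRNAs of at least 10 counts in every library (0.055) and with only the 2 regions (0.072).

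miR-195a-5p moved the other way in these cells. It measured 1179 and 1540 CPM in the caput, 1258 and 1379 CPM in the corpus and 912 and 750 CPM in the cauda, both cauda libraries lying below the rest. The log2 change from caput to cauda was -0.70 (SE 0.21, limma adjusted p = 0.032) and that from corpus to cauda -0.66 (SE 0.23, adjusted p = 0.087). The former rested on every library, since without any 1 of the 6 its adjusted p was between 0.053 and 0.215 (log2 change -0.83 to -0.47, smallest without caput replicate 2). It was also lost under 4 of 8 other settings, by library totals (-0.50, adjusted p = 0.115), with DESeq2 (0.051), with only the 2 regions (0.053) and with the replicate block (0.051).

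The other members were low in these shallower libraries, and none of them passed in the limma fit of all miRNAs with a mean count above 10. miR-497a-5p measured 414 and 416 CPM in the caput, 389 and 245 CPM in the corpus and 290 and 210 CPM in the cauda, the last from 78 and 44 counts. Its log2 change from caput to cauda was -0.73 (95% interval -1.35 to -0.10, adjusted p = 0.065), and with only miRNAs of at least 10 counts in every library it passed (-0.83, adjusted p = 0.040). miR-15b-5p, at 296 and 235 CPM in the caput, 162 and 174 CPM in the corpus and 320 and 310 CPM in the cauda, was lowest in both corpus libraries. The log2 change from corpus to cauda was 0.89 (adjusted p = 0.087), on 20 and 17 counts in the corpus, and under the same stricter filter it passed (0.80, adjusted p = 0.0498). miR-15a-5p lay lowest there too, at 149 and 142 CPM, then 89.3 and 102 CPM (11 and 10 counts), then 175 and 148 CPM, with a log2 change from caput to corpus of -0.57 (adjusted p = 0.28).

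At the 2-fold threshold 0 of 5 members were called between any regions of epithelial cells, where 12.2% of all tested miRNAs were from caput to corpus, 10.9% from corpus to cauda and 25.9% from caput to cauda. With the adjusted p alone, 0 of 5 members passed from caput to corpus (all miRNAs 19%), 1 of 5 from corpus to cauda (13.5%) and 2 of 5 from caput to cauda (39.4%). From caput to corpus the number was also 0 at an unadjusted p under 0.05 (71 of all 205 miRNAs), with edgeR (all miRNAs 22.4%) and with DESeq2 (21.5%). Erythroid markers rose here too (3 of 3 tested from caput to cauda), with a summed level between 382 and 473 CPM in the caput and between 1588 and 2966 CPM in the cauda, and so did the 2 tested leukocyte markers, 3 of 7 germ cell, 1 of 2 endothelial and 1 of 3 fibroblast markers. Of the 6 epithelial markers 2 rose and 2 fell, and 0 of 3 smooth muscle markers passed. Among all 216 miRNAs tested from caput to cauda, 45 passed as higher and 40 as lower. The part of these cells in the members' changes was not tested.

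Ratios between members within a library need no scaling, and they show how the family's makeup shifted. The ratio of miR-16-5p to miR-497a-5p was between 27.9 and 31.2 in the caput and between 62.5 and 79.6 in the cauda of whole tissue, a 2.42-fold increase. In epithelial cells it was between 16.3 and 18.1 in the caput and between 37.9 and 62.5 in the cauda, a 2.83-fold increase. miR-15b-5p to miR-497a-5p stood between 0.676 and 0.754 in caput tissue against 1.14 to 1.39 in cauda tissue, and between 0.566 and 0.714 against 1.1 to 1.48 in epithelial cells. miR-16-5p to miR-195a-5p stood between 11.8 and 17.4 in caput tissue against 19.0 to 21.9 in cauda tissue (1.36-fold), and between 4.41 and 6.36 against 12.1 to 17.5 in epithelial cells (2.75-fold). These 3 ratios were chosen after the levels had been seen. For whole tissue an exact two-sided permutation test of 3 against 3 libraries gave p = 0.1 for each of 6 ratios examined (0.1 after Benjamini-Hochberg adjustment), the smallest p this design allows, and for the 2 against 2 epithelial libraries no p can be below 0.333.

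Members made from neighbouring hairpins differed in their ratio between caput and cauda tissue. miR-195a-5p exceeded miR-497a-5p by between 1.69 and 2.36 times in the caput, between 2.28 and 2.51 times in the corpus and between 3.29 and 3.63 times in the cauda, a 1.78-fold increase from caput to cauda. In epithelial cells this ratio lay between 2.85 and 5.63, with the caput (2.85 and 3.71) and the cauda (3.14 and 3.57) overlapping. The ratio of miR-16-5p to miR-15a-5p was between 55.3 and 74.3 in the caput, between 98.1 and 125 in the corpus and between 104 and 111 in the cauda of whole tissue, and between 47.9 and 50.2, between 68.6 and 83.0 and between 62.9 and 88.7 in epithelial cells. For miR-16-5p to miR-15b-5p it was between 37.0 and 46.2 in caput tissue and between 50.5 and 57.1 in cauda tissue, and between 25.4 and 28.8 against 34.4 to 42.3 in epithelial cells. The miR-15a-5p and miR-15b-5p counts are small parts of these ratios (10 to 48 and 17 to 95 counts in an epithelial library), so they carry most of the counting error.

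**Figure D3:**
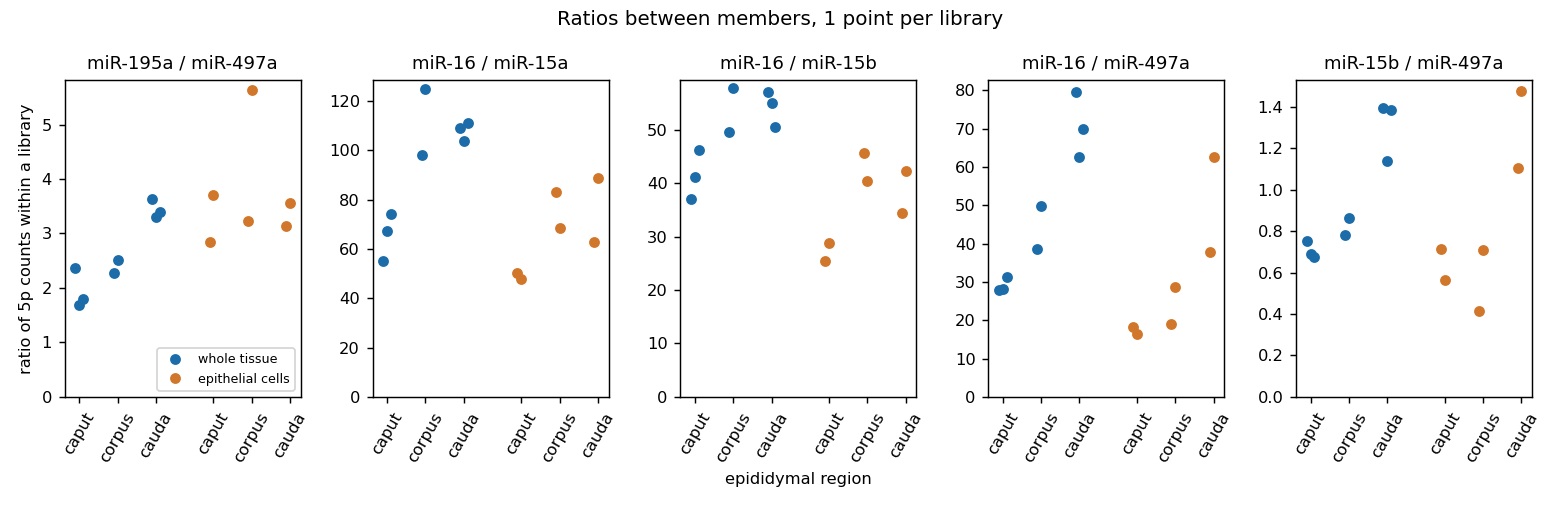
Ratios between the counts of members within a library, 1 point per library, by region and preparation, on linear axes from 0. In whole tissue all 5 ratios were higher in every cauda library than in every caput library, and in epithelial cells this held for every ratio except that of miR-195a to miR-497a.

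The isolated cells were compared with whole tissue in 1 fit of all 14 libraries over the 212 miRNAs identified in both. miR-16-5p was lower in epithelial cells in every region, with a log2 difference of -1.0 for caput (SE 0.13, limma adjusted p = 2.5e-05), -1.07 for corpus (adjusted p = 8.2e-05) and -0.76 for cauda (adjusted p = 0.00021). This held under 6 other settings and without each of the 14 libraries in turn, with an adjusted p of at most 0.0093, but the size depended on the setting. It was -0.61 in the caput and -0.48 in the cauda by library totals, and -0.58 in the caput with only miRNAs of at least 10 counts in every library. miR-195a-5p, the closest member by sequence, was higher in epithelial cells in the caput (0.49, adjusted p = 0.015) and corpus (0.68, adjusted p = 0.019), while its difference in the cauda was -0.25 (adjusted p = 0.26). The caput call was lost without caput epithelium replicate 2 (0.19, adjusted p = 0.36), and the corpus call without corpus epithelium replicate 2 (0.62, adjusted p = 0.097) or corpus tissue replicate 2 (0.68, adjusted p = 0.050), and both with the replicate block (adjusted p = 0.168 and 0.109). Other settings and leave-outs raised the caput value, to 0.90 by library totals, to 0.93 with only miRNAs of at least 10 counts in every library and to 0.86 without caput epithelium replicate 1.

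For miR-15a-5p the difference was -0.58 in the caput (adjusted p = 0.0074), -0.46 in the corpus (0.128, and 0.025 with the filter of 10 counts) and -0.20 for the cauda (0.33). The caput call was kept under 2 of 6 other settings. It was lost without caput epithelium replicate 1 (-0.45, adjusted p = 0.128), by library totals (-0.18, adjusted p = 0.39), with DESeq2 size factors (-0.44, adjusted p = 0.051), with all miRNAs of at least 1 count (adjusted p = 0.094) and with only those of at least 10 counts in every library (-0.16, adjusted p = 0.36). miR-15b-5p was lower in the corpus (-0.72, adjusted p = 0.015), a call lost without either corpus epithelium library (adjusted p = 0.083 and 0.050), and in the caput (-0.39, adjusted p = 0.030), where the call was lost without caput tissue replicate 3, cauda tissue replicate 3 or either caput epithelium library (-0.39 to -0.32). Of 6 other settings, edgeR alone kept the caput call, and the difference was -0.24 with DESeq2 size factors (adjusted p = 0.174), -0.23 with all miRNAs of at least 1 count (0.300), -0.35 with the replicate block (0.132), 0.011 by library totals and 0.034 with the filter of 10 counts. The differences of miR-497a-5p were within their error, at -0.25 for caput, -0.11 for corpus and -0.19 for cauda (adjusted p between 0.236 and 0.737). In all, 4 of 5 members passed in the caput (all miRNAs 64.2%), 3 of 5 in the corpus (46.7%) and 1 of 5 in the cauda (64.2%). Preparation cannot be told apart here from depth, from sequencing batch or from the differing releases of miRNA names in the deposited counts. Markers of other cells differed as well. Endothelial markers were higher in epithelial cells in the caput and the cauda (2 of 2 each), as were 2 of 3 erythroid markers in both and 2 of 3 smooth muscle markers in the caput and corpus (in the cauda 1 was higher and 1 lower), and germ cell markers were lower in the cauda (6 of 7). Of the 6 epithelial markers, 1 was higher and 3 were lower in the caput, while 3 were higher in the corpus, and 3 were higher and 1 lower in the cauda. Of the 3 fibroblast markers, 2 were higher and 1 lower in the caput, and 1 was higher and 1 lower in each of the other regions. Of the 2 leukocyte markers, 1 was higher and 1 lower in the caput and again in the cauda, and 1 was lower in the corpus. The part of these cells in the members' differences was not tested.

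Whether a regional change differed between the preparations was tested as an interaction. The change of miR-195a-5p from caput to cauda was lower in epithelial cells than in whole tissue by 0.74 (log2 difference of changes -0.74, SE 0.24, limma adjusted p = 0.039). Both cauda epithelial libraries lay below both caput ones, while the tissue libraries overlapped. The call was lost without caput tissue replicate 2 or 3, corpus tissue replicate 1 or 2, cauda tissue replicate 2 or 3, caput epithelium replicate 2 or cauda epithelium replicate 1 or 2, with values from -0.87 to -0.39, the smallest (adjusted p = 0.23) without caput epithelium replicate 2. With the replicate block its adjusted p was 0.053, and with only miRNAs of at least 10 counts in every library the value was -1.27 (adjusted p = 0.00038). From corpus to cauda the difference of its changes was -0.93 (adjusted p = 0.065), and from caput to corpus 0.19 (adjusted p = 0.78). Thus 1 of 5 members passed from caput to cauda (all miRNAs 28.3%), and 0 of 5 passed from caput to corpus (8.02%) or between corpus and cauda (5.19%). At an unadjusted p under 0.05 these last numbers were 0 and 1 (51 and 55 of all 212 miRNAs), and with edgeR 0 and 1 (all miRNAs 8.96 and 10.4%).

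**Figure D4:**
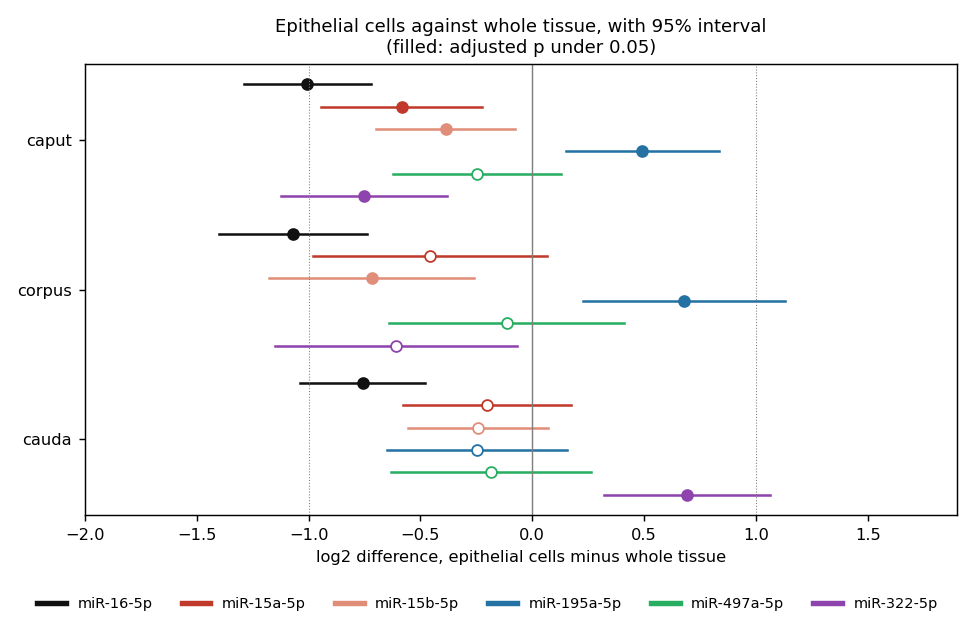
Log2 difference between epithelial cells and whole tissue in each region, with the 95% interval of the limma fit, for the 5 members and for miR-322-5p, which has the same seed. Filled points have an adjusted p under 0.05, and miR-16-5p lies below 0 in all 3 regions while miR-195a-5p lies above 0 in the caput and corpus.

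miR-322-5p, the mouse counterpart of human miR-424-5p, carries the family's seed but comes from a hairpin on another chromosome, and in caput tissue its level was in the range of miR-195a-5p. It measured 775, 846 and 622 CPM in the caput, 462 and 440 CPM in the corpus and 376, 393 and 353 CPM in the cauda of whole tissue, each region below the one before. From caput to cauda it fell by 0.99 on the log2 scale (SE 0.12, limma adjusted p = 3.8e-05). In epithelial cells it measured 666 and 432 CPM in the caput, 398 and 255 CPM in the corpus and 767 and 759 CPM in the cauda, which was above all the others. The log2 change from corpus to cauda was 1.22 (SE 0.33, adjusted p = 0.047), a call lost when any library other than caput replicate 1 was left out (log2 change 0.93 to 1.56) and with only the 2 regions (1.16, adjusted p = 0.060). From caput to cauda miR-322-5p did not pass in these cells (0.51, limma adjusted p = 0.155). Its changes differed between the preparations from caput to cauda (1.44, SE 0.24, adjusted p = 0.0011) and from corpus to cauda (1.30, adjusted p = 0.020). It was lower in epithelial cells than in whole tissue in the caput (-0.75, adjusted p = 0.0017), a difference of -0.36 by library totals (adjusted p = 0.128) and -0.34 with the filter of 10 counts (adjusted p = 0.122), and higher in the cauda (0.69, adjusted p = 0.0036). Its difference in the corpus was -0.61 (limma adjusted p = 0.060). With miR-322-5p and miR-195b added to the sum, miR-16-5p made up between 80.5 and 90.3% of the counts with this seed in whole tissue and between 71.1 and 85.8% in epithelial cells. miR-195b itself was near the limit of detection, at means between 1.18 and 3.60 CPM per region in whole tissue.

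The 3p products of the same hairpins, mostly discarded when the guide strand is loaded, were scarce. miR-16-1-3p and miR-497a-3p had at most 1 count in any whole tissue library, and miR-16-5p had between 3555 and 6478 times the counts of miR-16-2-3p, taking 3 counts wherever the 3p product had 3 or fewer. Since miR-16-5p comes from both Mir16 hairpins and miR-16-2-3p from Mir16-2 alone, this is not the ratio of the arms of a single hairpin. The least uneven pair was miR-15b, with between 13.3 and 50.3 times as many 5p as 3p counts in whole tissue. miR-15b-3p stood at 20.6, 19.3 and 14.8 CPM in the caput (32, 28 and 27 counts) and at 8.23, 5.54 and 8.84 CPM in the cauda (16, 9 and 15 counts), a log2 change of -1.23 (SE 0.27, limma adjusted p = 0.0019) beside 0.07 for miR-15b-5p. miR-195a-3p went from 12.2, 13.8 and 12.1 CPM to 6.18, 5.54 and 5.31 CPM, a log2 change of -1.11 (SE 0.26, adjusted p = 0.0027) beside 0.02 for miR-195a-5p. With DESeq2 these adjusted p values were 0.058 and 0.124. Whether the 2 arms of a hairpin differed in their change was not tested.

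Across all 8 whole tissue libraries miR-195a-5p and miR-15b-5p were among the steadiest miRNAs. The SD of log2 CPM was 0.084 for miR-195a-5p, rank 2 from the lowest of 360 identified miRNAs, and 0.106 for miR-15b-5p, rank 4, against a median of 0.646. miR-15a-5p (0.226), miR-16-5p (0.244) and miR-497a-5p (0.388) ranked 25, 33 and 91. By library totals the order within the family changed, with miR-15a-5p steadiest (SD 0.131, rank 4), miR-15b-5p at rank 23 (SD 0.200) and miR-195a-5p at rank 24 (SD 0.206). In epithelial cells the members ranked between 53 and 81 of 216, with an SD of 0.388 for miR-195a-5p.

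The miRNAs whose log2 CPM ran most like each member over the 8 whole tissue libraries are given as a description, since these libraries share regions and scaling. For miR-497a-5p they were miR-423-5p (Pearson's r = 0.99), let-7b-5p (0.99) and miR-125a-5p (0.99), and for miR-16-5p they were miR-708-5p (0.95), miR-142a-5p (0.94), a leukocyte miRNA, and miR-501-3p (0.93). miR-15a-5p ran most like miR-107-3p (0.96), miR-33-3p (0.95) and miR-191-3p (0.93), and miR-15b-5p like miR-339-5p (0.86), miR-329-5p (0.82) and miR-27a-3p (0.80). For miR-195a-5p they were miR-126a-5p (0.90), an endothelial miRNA, miR-155-5p (0.69), a leukocyte miRNA, and miR-22-5p (0.64). In the 6 epithelial libraries the r with the same member was 0.90 for miR-142a-5p, 0.81 for miR-27a-3p, 0.75 for let-7b-5p, 0.68 for miR-339-5p, 0.57 for miR-501-3p, 0.52 for miR-125a-5p, 0.22 for miR-107-3p, -0.09 for miR-22-5p, -0.12 for miR-423-5p and -0.74 for miR-126a-5p. By library totals, in whole tissue, it was 0.42, 0.57 and 0.42 for the 3 miRNAs most like miR-15a-5p, 0.37 for miR-339-5p and 0.17 for miR-22-5p. Of the members made from neighbouring hairpins, miR-195a-5p and miR-497a-5p had r = -0.24 in whole tissue and 0.65 in epithelial cells. miR-16-5p had -0.54 and 0.56 with miR-15a-5p, and 0.35 and 0.69 with miR-15b-5p. By library totals the whole tissue values of these pairs were -0.68, 0.04 and 0.91.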

How the data were processed

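Small RNA of 14 mouse epididymis libraries was sequenced as single-end reads (Illumina). The authors screened and trimmed the reads and mapped them against genome build mm10 and miRBase. What they deposited are expected counts of each mature miRNA, without normalization. The submitters' processing notes name CASAVA 1.8.2, Bowtie 1.1.1 and limma. The epithelial values had 0.001 added to each, which was removed here. Rounding to whole numbers changed a library's total by at most 0.00337%.

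TMM factors came from edgeR 4.0.16, and voom weights and tests from limma 3.58.1 under R 4.3.3. Each preparation had its own fit. A miRNA was tested where its mean count was above 10 in at least 1 of the regions, and p-values were adjusted by Benjamini-Hochberg over all tested miRNAs. Preparations were compared in a fit of all libraries, after 31 names had been joined by adding the letter a. The scripts were tested on simulated data.

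Alternatives were edgeR's quasi-likelihood test, DESeq2 1.42.0 (within preparations), its size factors, library totals, a looser filter (1 count) and a stricter one (10 counts in each library), a fit of the compared regions alone, a replicate block, and each library left out. Replicate numbers come from the sample titles. The deposited column names number the tissue libraries on through the regions and skip a number before the corpus. Corpus replicate numbers may therefore not match those of caput and cauda, which limits the replicate block. Deviations from the region mean correlated weakly between same-numbered tissue libraries of caput and cauda (r = 0.23, 0.13 and 0.11) and of corpus and cauda (0.21 and 0.14). For caput and corpus tissue r was 0.01 and 0.02. In epithelial cells it was 0.19 for caput and corpus, -0.105 for corpus and cauda and -0.142 for caput and cauda. Differently numbered libraries were not compared, so these values cannot show whether the numbers mark a pairing. The block is given as an alternative only. The text names the 5 members, their 3p products, miRNAs with the same seed and the 3 miRNAs most like each member. The members and marker lists were chosen with earlier results of these data known.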

Additional observations from a re-analysis of the deposited data

Results flagged for a closer look

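Changes that differed between the preparations by the interaction test were singled out. For miR-195a-5p the change from caput to cauda was lower in epithelial cells than in whole tissue (log2 difference -0.74, limma adjusted p = 0.039), a call lost with the replicate block (adjusted p = 0.053) and without caput tissue replicate 2 or 3, corpus tissue replicate 1 or 2, cauda tissue replicate 2 or 3, cauda epithelium replicate 1 or 2, or caput epithelium replicate 2 (-0.39 without the last). For miR-322-5p, which shares the seed, the change was higher in epithelial cells from caput to cauda (1.44, adjusted p = 0.0011) and from corpus to cauda (1.30, adjusted p = 0.020). The latter was lost without corpus epithelium replicate 2 (1.01, adjusted p = 0.089) or cauda epithelium replicate 2 (1.25, adjusted p = 0.052), and the former kept an adjusted p of at most 0.016 under 6 other settings and without each library. From caput to cauda, smooth muscle markers rose in whole tissue (4 of 4) and 0 of 3 did in epithelial cells, and germ cell markers rose 7 of 7 and 3 of 7. Of the 6 epithelial markers, 6 fell in whole tissue, and in epithelial cells 2 rose and 2 fell, while 1 of 2 endothelial markers rose in either. Erythroid markers rose 4 of 4 and 3 of 3, leukocyte markers 5 of 5 and 2 of 2, and fibroblast markers 3 of 3 and 1 of 3. From corpus to cauda, smooth muscle markers rose 4 of 4 in whole tissue and 0 of 3 in epithelial cells, germ cell markers 5 of 7 and 0 of 7, and endothelial markers 1 of 2 and 2 of 2, and epithelial markers fell 6 of 6 and 2 of 6. Erythroid markers rose 3 of 4 and 2 of 3 there, leukocyte markers 3 of 5 and 1 of 2, and fibroblast markers fell 1 of 3 and 0 of 3. Among all miRNAs tested from caput to cauda, 134 of 355 rose and 147 fell in whole tissue, and 45 of 216 rose and 40 fell in epithelial cells. From corpus to cauda, 92 of 341 rose and 93 fell in whole tissue, and 15 of 192 rose and 11 fell in epithelial cells. The part of the marked cells in these differences was not tested.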

How the results depend on the processing

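Under the other settings, leave-outs aside, the fitted log2 values of the named miRNAs kept their direction and side of the threshold 120 times in whole tissue (15 lost the call, 4 gained it, 3 turned sign), 112 times in epithelial cells (8, 2 and 6), 81 times between preparations (11, 1 and 9) and 23 times for the interaction (1, 3 and 3). The number of members with an adjusted p under 0.05 moved as follows, with the share of all tested miRNAs under the same settings in brackets. In whole tissue it fell from 2 to 1 between caput and corpus with DESeq2, DESeq2 size factors, library totals and the replicate block (42.5 to 58.4%), and lay between 0 and 2 without a library. Between corpus and cauda it fell from 1 to 0 with DESeq2 (39.6%) and was 0 to 1 without a library. Between caput and cauda it was 3 with edgeR (79.2%), 4 by library totals (78.0%), 2 under each of the other 6 settings (38.2 to 79.2%) and 2 with any 1 library left out, since miR-15a-5p lost its call. In epithelial cells it fell from 1 to 0 between corpus and cauda with library totals (12.0%) and with only the 2 regions (8.33%), and was 0 to 1 without a library. Between caput and cauda it fell from 2 to 1 with DESeq2, library totals, only the 2 regions and the replicate block (34.3 to 38.0%), rose to 3 with the filter of 10 counts (44.0%), and was 0 to 1 without a library. Same-numbered cauda and other epithelial libraries deviated weakly in opposite ways (r = -0.105 with the corpus and -0.142 with the caput). With crossed numbers, a setting chosen after seeing the data, 2 members passed between corpus and cauda and 3 between caput and cauda. The share of all miRNAs went from 13.5 to 24.5% and from 39.4 to 48.1%. Since the numbers were crossed to follow these same data, the calls gained lend the members no support. Against whole tissue the number in the caput fell from 4 to 2 with size factors, library totals, both filters and the block (47.7 to 68.9%), and was 2 to 4 without a library, and in the corpus it was 4 with the filter of 10 counts (65.2%), 2 with the block (35.4%) and 1 to 3 without a library. For the interaction it was 1 between caput and corpus with the filter of 10 counts (9.09%), 1 between corpus and cauda with edgeR, size factors and that filter (7.08 to 10.6%, and 0 to 1 without a library), and 0 between caput and cauda with the block (25.9%, and 0 to 1 without a library).

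The values below turned sign, among them 2 that had passed, miR-15a-5p from caput to cauda of whole tissue (-0.26) and miR-15b-5p between preparations in the caput (-0.39). Between caput and corpus of whole tissue miR-15b-5p was 0.19 and miR-195a-5p 0.28 by library totals (miR-195a-5p -0.067 to 0.048 without a library), and miR-15a-5p was 0.087 from caput to cauda. Between caput and corpus of epithelial cells miR-16-5p was -0.13 with all miRNAs and -0.018 with the filter of 10 counts (-0.025 to 0.11 without a library), and miR-195a-5p was 0.050 with DESeq2, 0.072 with size factors, 0.13 by totals and 0.039 with only the 2 regions (-0.20 to 0.19). miR-497a-5p was -0.65 to 0.0053 from corpus to cauda without a library. Against whole tissue in the caput miR-15b-5p was 0.011 by totals and 0.034 with the filter, and miR-497a-5p 0.15 and 0.18. In the corpus miR-497a-5p was 0.024 with the block (-0.47 to 0.20 without a library). In the cauda, by totals, miR-15a-5p was 0.070, miR-15b-5p 0.024, miR-195a-5p 0.024 and miR-497a-5p 0.086, and without a library miR-15a-5p was -0.29 to 0.0017, miR-15b-5p -0.27 to 0.016 and miR-497a-5p -0.41 to 0.026. The interaction of miR-195a-5p between caput and corpus was -0.15 by totals, -0.064 with all miRNAs and -0.27 with the filter (-0.13 to 0.50). The ratio of miR-195a-5p to miR-497a-5p in epithelial cells changed by -0.15 to 0.23 (log2) without a library. The causes were not tested. Against TMM, library totals raised the median log2 change of all miRNAs by 0.33 and 0.35 (caput to corpus and to cauda) in whole tissue and by 0.40 in the caput between preparations, and the share of calls that were higher went from 44.9 to 69.2%, from 47.7 to 60.3% and from 37.5 to 56.9%. In epithelial cells from caput to cauda the shift was 0.18 and that share went from 52.9 to 71.6%. The interaction from caput to corpus went the other way, with a shift of -0.32 and a share from 82.4 to 28.6%. The replicate block changed no other call in whole tissue between caput and cauda than that of miR-15a-5p. The 10 to 48 counts of miR-15a-5p limit what epithelial libraries can show.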
